A study of Mus musculus with 8 samples.

Results

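Surface proteins that mark hepatic progenitor cells or stem cells were examined in cultured mouse hepatoblasts, the fetal liver cells that give rise to hepatocytes and bile duct cells. The set was Dlk1, Kit, Kitl, Prom1, Cd24a, Cd44, Cd34, Ly6a, Gpc3 and Igdcc4, taken as every probe set annotated to exactly 1 of these symbols. That gave 22 probe sets for 9 of the 10 genes, out of 45101 probe sets and 18193 genes on the array. Ly6a had 0 such probe sets in the annotation used and was not analysed here.

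The groups were 4 arrays labelled Bmi1 and 4 arrays labelled control, each group numbered 1 to 4. Cells of both groups were Ink4a-Arf-null, came from livers of embryos at day 14.5 and were selected for Dlk by magnetic sorting, so every array comes from cells chosen by a protein of this set. After 12 to 18 h the cells received Bmi1, a Polycomb group gene, or EGFP, and grew on collagen IV in HGF (50 ng/ml) and EGF (20 ng/ml) until flow cytometry on culture day 28. RNA matching 10000 cells was amplified for each array. The series describes 4 independent experiments, and the number of embryos behind each is not stated in the labels.

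Dlk1 is a transmembrane protein of the Notch ligand family that fetal hepatoblasts carry and adult hepatocytes lack. Kit is a receptor tyrosine kinase of blood, germ and pigment cell precursors, and Kitl (stem cell factor) is its ligand. Prom1 (CD133), Cd24a, Cd44 and Cd34 are surface glycoproteins used to enrich stem or progenitor cells in several tissues. Gpc3, a heparan sulfate proteoglycan, and Igdcc4 (Nope), an immunoglobulin superfamily receptor, are fetal liver proteins known from liver tumours.

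The upstream sequences of 3 genes are shown because their signals mark the range of behaviour described below. Kit had the largest group difference of the set, Gpc3 was well measured and passed no test, and Cd34 lay mostly at background. Each is the 250 bases before the annotated start in RefSeq (GRCm38.p6), written 5′ to 3′ on the gene's strand. Capitals mark the GC box GGGCGG on either strand. They also mark the CCAAT box, the TATA box TATAAA and the E-box CACGTG, again on either strand. No match shown overlaps another.

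Kit, chr5:75574737-75574986, plus strand: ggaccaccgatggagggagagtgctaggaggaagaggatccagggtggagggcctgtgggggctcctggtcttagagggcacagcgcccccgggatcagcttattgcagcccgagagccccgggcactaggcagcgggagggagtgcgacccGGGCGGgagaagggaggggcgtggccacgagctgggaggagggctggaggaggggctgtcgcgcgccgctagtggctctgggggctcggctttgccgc
Gpc3, chrX:52613975-52614224, minus strand: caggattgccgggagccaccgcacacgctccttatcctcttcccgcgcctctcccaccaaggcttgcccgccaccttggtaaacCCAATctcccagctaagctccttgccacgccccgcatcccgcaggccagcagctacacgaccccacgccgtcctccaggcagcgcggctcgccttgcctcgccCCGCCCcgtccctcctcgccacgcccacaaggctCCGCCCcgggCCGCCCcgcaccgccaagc
Cd34, chr1:194938571-194938820, plus strand: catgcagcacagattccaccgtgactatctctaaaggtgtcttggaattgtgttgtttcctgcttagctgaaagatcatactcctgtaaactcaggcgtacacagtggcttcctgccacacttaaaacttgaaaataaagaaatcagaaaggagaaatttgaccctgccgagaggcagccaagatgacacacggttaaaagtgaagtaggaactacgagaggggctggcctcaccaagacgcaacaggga

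The Kit window is 70.8% G and C and holds 17 CpG dinucleotides, a number that 23.5% of all 32851 RefSeq windows of this length reach. The Gpc3 window holds 25, reached by 10.7% of windows, and the Cd34 window holds 6, reached by 50.4%. A GC box was present once in the Kit window, 3 times in that of Gpc3 and in 32.7% of all windows. CCAAT, found in 33.8% of all windows, occurred in the Gpc3 window only among these 3, and TATAAA (12.4%) and CACGTG (6.02%) in none of them. These matches describe the letters of the windows. RefSeq windows were matched for 8 of the 10 listed genes, and not for Cd24a or Ly6a.

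Signals are intensities in array units, scaled so that each array has the same trimmed mean of 100. Differences are log2, arrays labelled Bmi1 minus control arrays, from limma with Benjamini-Hochberg adjustment over 27022 tested probe sets and a threshold of 0.05. Background was set per array from 27 control probe sets for bacterial transcripts, as their 95th percentile, and lay between 4.09 and 9.97 on the 8 arrays. The labels name no batch. Replicates 1 and 2 (called run 1 here) differed from replicates 3 and 4 (run 2), as judged from these values, in the BioC hybridisation control, which read 198 to 274 in run 1 and 97.0 to 119 in run 2. Each run holds both groups equally, and the run difference itself passed for 8 of the 17 tested probe sets of the set and for 26.7% of all. The 3′ to 5′ signal ratio of Gapdh, a sign of RNA quality, was 3.10 on control 1 and 1.65 to 1.96 on the other arrays. Without replicate number 1 the blocked differences described below were 1.87 for Kit (limma adjusted p = 0.0234), 0.63 for Cd24a 1416034_at (0.0259) and 0.63 for Dlk1 1449939_s_at (0.0689). The signal of Bmi1 itself was lower in the arrays that carry its label in 4 of 4 pairs at both tested probe sets. The brighter one read 279 ± 60.01 against 518 ± 218 in control arrays (SD, n = 4 each). Its difference of -0.86 was called with the replicate block (blocked limma adjusted p = 0.0376, unblocked 0.633). The dimmer one differed by -0.95 and was called in neither model (blocked limma adjusted p = 0.0851, unblocked 0.901). Whether these probe sets read the introduced Bmi1 sequence was not tested, so directions below go by the labels.

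Of the 22 probe sets 17 passed the level filter, which drops the dimmest 40% of probe sets by mean signal. They represent 8 genes, and probe sets of a gene read the same RNA. Without a block limma called 0 of the 17 at the adjusted threshold, with 4 at an unadjusted p under 0.05, while 0.0444% and 5.02% of all tested probe sets did so (0.0259% called higher and 0.0185% called lower). With the replicate number as a block it called 3 of the 17, all higher in arrays labelled Bmi1, against 0.877% of all probe sets called higher, 0.903% called lower and 1.78% called at all. At an unadjusted p under 0.05 the blocked model had 8 of the 17, against 13.6% of all. Those 3 were 1 probe set each of Kit, Cd24a and Dlk1. With the run as a block only Kit passed of the 17, where 0.751% of all probe sets passed.

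**Figure D1:**
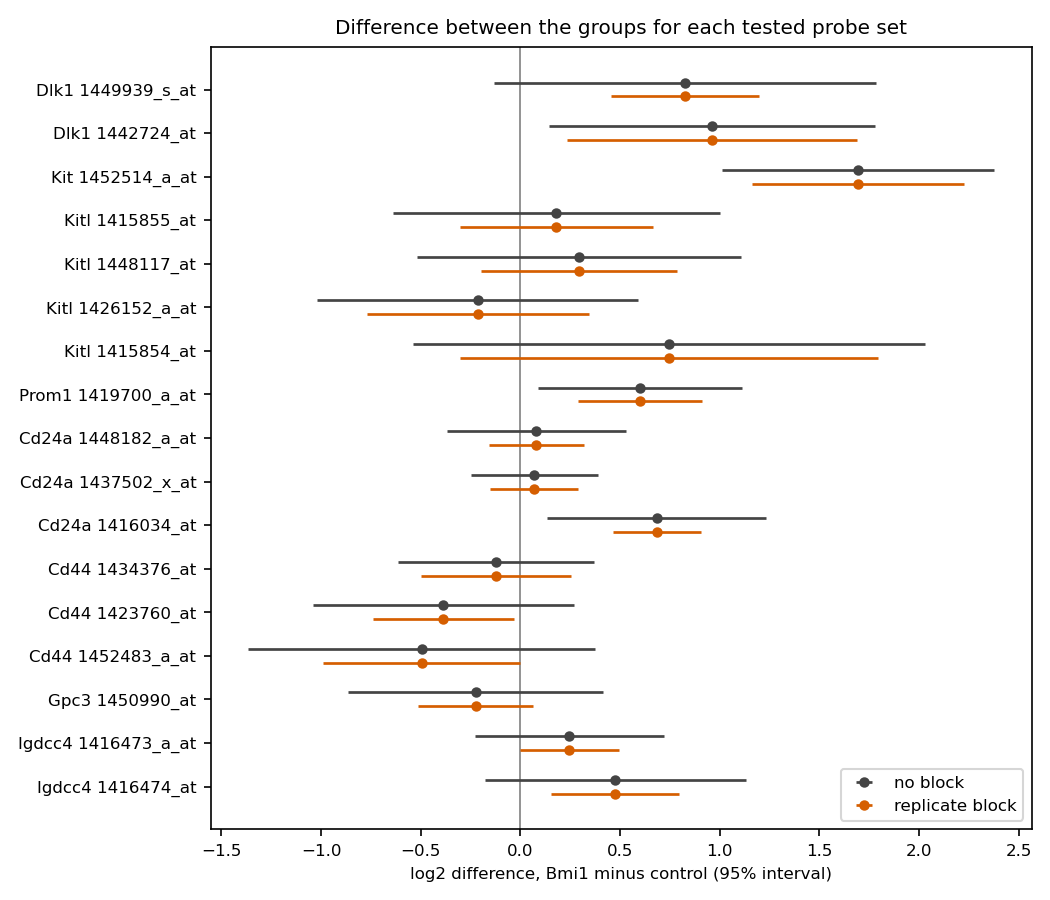
Log2 difference, arrays labelled Bmi1 minus control arrays, for the 17 tested probe sets of the set (points) with 95% intervals, without a block (grey) and with the replicate block (orange). Kit 1452514_a_at lies farthest to the right at 1.69, and the points of Cd44 and Gpc3 lie left of 0.

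Kit, the receptor, showed the largest difference. Its probe set 1452514_a_at read 32.0, 56.1, 58.1 and 67.0 on the arrays labelled Bmi1 1 to 4, against 10.9, 14.3, 16.03 and 10.7 on control arrays 1 to 4. Every array labelled Bmi1 lay above every control array. After centring this held for Kit alone among the 17, and for 1.5% of all tested probe sets, while on the deposited signals it held for Cd24a 1416034_at too. All 8 readings were above background. The difference was 1.69 (SE 0.31, limma adjusted p = 0.12), and Kit rose once arrays were paired by replicate number (SE 0.23, blocked limma adjusted p = 0.0127) or blocked by run (0.0188 by limma). It was 1.46 within run 1 and 1.93 within run 2. Dropping replicate number 3 or 4 from the blocked model raised the limma adjusted p to 0.0692 and 0.0595.

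The other Kit probe set, 1415900_a_at, was under the level filter and untested. It read 12.9, 12.2, 1.80 and 3.85 on arrays labelled Bmi1, against 3.75, 21.9, 2.56 and 1.52 on control arrays. These readings overlap, and 2 of 4 and 3 of 4 of them were at background. The Kit result therefore rests on 1 of its 2 probe sets.

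Kitl, the ligand of Kit, passed no test at its 4 probe sets. Its brightest probe set, 1415855_at, read 1574, 1074, 608 and 517 on arrays labelled Bmi1, against 1158, 602, 974 and 421 on control arrays. The groups overlap throughout, and run 1 was higher than run 2 in the arrays labelled Bmi1. The difference was 0.18 (95% interval -0.64 to 1.0, limma adjusted p = 1.0, or 0.774 when blocked by replicate). It was 0.59 within run 1 and -0.23 within run 2, with opposite signs. Tested as an interaction of run and group, limma called 0 probe sets over the whole array, with 727 at an unadjusted p under 0.05, and the lowest unadjusted p of the set was 0.0851, for Cd44 1434376_at. The probe sets 1448117_at (0.30), 1415854_at (0.75) and 1426152_a_at (-0.21) did not pass either, with limma adjusted p between 0.541 and 0.767 with the block. For 1415854_at control 2 read 0.355, at background, and the difference without that array was 0.23.

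Dlk1, the protein used for sorting, read higher on the Bmi1 side of all 4 pairs at both of its probe sets. Probe set 1449939_s_at read 1572, 1653, 3133 and 2609 on arrays labelled Bmi1, against 543, 1017, 1634 and 2103 on control arrays. The groups overlap because run 2 was higher than run 1 in both, by 1.2 on the log2 scale (limma adjusted p = 0.00246 for the run difference). The group difference was 0.83 (SE 0.43, limma adjusted p = 1.0), and 1449939_s_at rose once paired by replicate number (SE 0.16, blocked limma adjusted p = 0.0443). The unblocked difference was 0.43 without control 1, the array with the Gapdh ratio of 3.10, and 0.46 with array weights. The blocked call was lost without replicate number 1 (0.0689), 2 (0.13) or 3 (0.194), with quantile normalisation (0.0708), without the level filter (0.0644) and with 1 probe set kept per gene (0.0507). The within-pair differences were 1.42, 0.71, 0.90 and 0.27 in pairs 1 to 4. The second Dlk1 probe set, 1442724_at, read 36.6, 53.5, 42.4 and 42.1 on arrays labelled Bmi1, against 21.4, 9.98, 15.9 and 40.6 on control arrays. Only control 4 reached the level of the arrays labelled Bmi1, and the difference of 0.96 did not pass (limma adjusted p = 0.805, and 0.222 with the block).

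**Figure D2:**
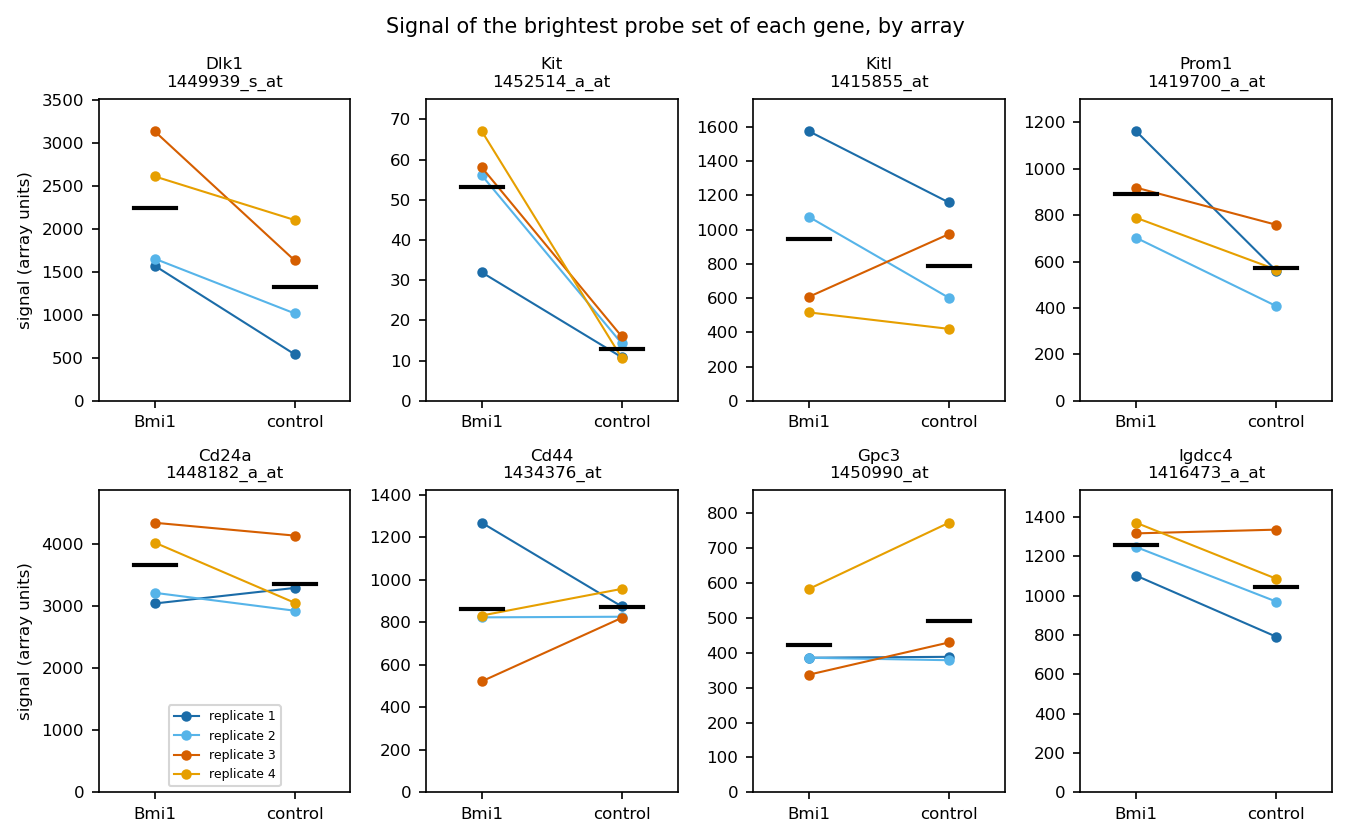
Signal in array units (vertical axis from 0) of the brightest tested probe set of 8 genes, arrays labelled Bmi1 on the left and control arrays on the right, with lines joining arrays of the same replicate number and bars at the group means. Kit separates the groups, Dlk1 and Prom1 are higher on the left in all 4 pairs, and the lines of Kitl, Cd24a and Cd44 run in both directions.

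Prom1 encodes the pentaspan membrane protein prominin-1, known from apical protrusions of epithelial cells. Its probe set 1419700_a_at read 1161, 702, 918 and 789 on arrays labelled Bmi1, against 562, 409, 759 and 566 on control arrays. Every pair was higher on the array labelled Bmi1, while the groups overlapped through control 3. The difference of 0.60 (95% interval 0.09 to 1.11) passed neither without the block (limma adjusted p = 0.807) nor with it (0.0725). It was 0.86 within run 1, 0.34 within run 2 and 0.32 with array weights.

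Cd24a, a small glycoprotein anchored in the membrane by a lipid, gave different readings at its 3 probe sets. Probe set 1416034_at read 1563, 1692, 2298 and 1865 on arrays labelled Bmi1, against 807, 1019, 1541 and 1185 on control arrays. As deposited every array labelled Bmi1 lay above every control array, by little for Bmi1 1 over control 3, and after centring on the tested probe sets the groups overlapped. The difference was 0.68 (SE 0.25, limma adjusted p = 0.723). Paired by replicate number, 1416034_at rose (SE 0.10, blocked limma adjusted p = 0.0139), with within-pair differences of 0.84, 0.75, 0.54 and 0.61. With the run block the limma adjusted p was 0.0511, and array weights gave a difference of 0.45. In the blocked model it was 0.0638, 0.0653 and 0.0595 without replicate number 2, 3 or 4, and 0.0792 without the level filter.

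The brightest Cd24a probe set, 1448182_a_at, read 3037, 3209, 4335 and 4017 on arrays labelled Bmi1, against 3287, 2921, 4129 and 3050 on control arrays. Its difference was 0.08 (95% interval -0.37 to 0.53). It was brighter than 99.7% of probe sets or equal to them, and whether it is near saturation was not tested. The third probe set, 1437502_x_at, differed by 0.07 (95% interval -0.25 to 0.39). Its name ends in _x_at, which marks possible cross-hybridisation. The within-array log2 ratio of 1448182_a_at to 1416034_at was lower in arrays labelled Bmi1 by 0.60 on average, in 4 of 4 pairs (log2 ratio difference -0.60, two-sided exact permutation p = 0.0286, the smallest that 4 against 4 arrays allow). Over the 14 such ratios within genes the adjusted p was 0.4, and 0 of the 14 passed. The Cd24a result therefore holds for 1 of 3 probe sets.

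**Figure D3:**
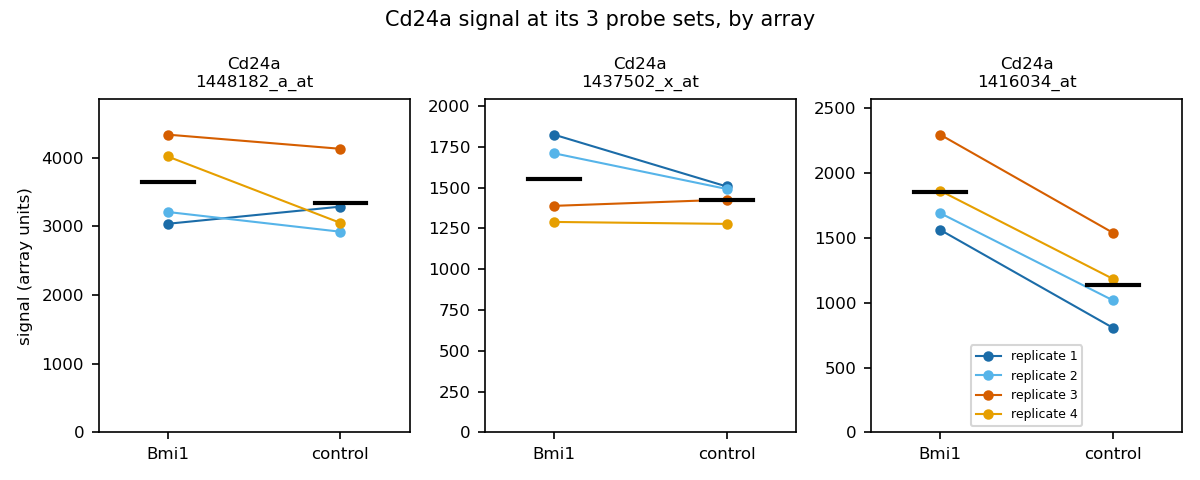
Signal in array units (vertical axes from 0) at the 3 probe sets of Cd24a, arrays labelled Bmi1 on the left and control arrays on the right, with lines joining arrays of the same replicate number and bars at the group means. The lines of 1416034_at fall to the right in all 4 pairs, while those of 1448182_a_at and 1437502_x_at run in both directions.

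Cd44, a hyaluronan receptor of many cell types, was not called at any of its 3 tested probe sets. Probe set 1423760_at read 1223, 765, 359 and 640 on arrays labelled Bmi1, against 1145, 947, 696 and 745 on control arrays, and was lower in 3 of 4 pairs as scaled by the authors. Centred on the tested probe sets it was lower in 4 of 4 pairs, as was 1452483_a_at, where 12% of all tested probe sets were. Their differences were -0.39 and -0.50 (limma adjusted p = 1.0 for each, and 0.32 and 0.366 with the block). Without Bmi1 3 they were -0.10 and -0.26, and without Bmi1 1 they were -0.62 and -0.78. The brightest probe set, 1434376_at, read 1269, 824, 523 and 832 on arrays labelled Bmi1, against 875, 827, 821 and 958 on control arrays. Array 1 was the highest and array 3 the lowest of those labelled Bmi1, and the difference was -0.12 (95% interval -0.61 to 0.37). It was 0.22 within run 1 and -0.46 within run 2. The remaining probe set, 1443265_at, was at background on all 8 arrays.

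Gpc3, the glypican, read 386, 386, 337 and 583 on arrays labelled Bmi1, against 388, 378, 429 and 772 on control arrays. The arrays numbered 4 were the highest of each group, and the others lay close together. The difference was -0.23 (95% interval -0.86 to 0.41, limma adjusted p = 1.0, and 0.497 with the block), and it was 0.04 without control 4.

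Igdcc4 had 2 tested probe sets. Probe set 1416473_a_at read 1101, 1246, 1316 and 1370 on arrays labelled Bmi1, against 791, 970, 1335 and 1086 on control arrays. Probe set 1416474_at read 235, 305, 436 and 333 on arrays labelled Bmi1, against 163, 183, 275 and 295 on control arrays. Pair 3 of the first probe set was the exception to higher readings in the arrays labelled Bmi1. The differences were 0.25 and 0.48, and passed neither without the block (limma adjusted p = 1.0 for each) nor with it (0.378 and 0.168). Without control 1 the differences were 0.097 and 0.31. Both probe sets were higher in run 2, by 0.46 and 0.74 (limma adjusted p = 0.0259 and 0.0101). The other 2 Igdcc4 probe sets, 1443272_at and 1458958_at, were under the level filter, with signals between 0.725 and 18.5.

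Cd34, a sialomucin of blood stem cells and endothelium, was under the level filter and untested. Probe set 1416072_at read 2.10, 17.7, 3.62 and 2.59 on arrays labelled Bmi1, against 61.8, 5.68, 0.614 and 2.62 on control arrays. Of these readings 3 of 4 in each group were at background, and control 1 stood highest.

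Over the 17 tested probe sets, 12 had a higher mean, as did 46.9% of all. Of the 17, 6 read higher on the Bmi1 side of all 4 pairs and 2 read lower in all 4, where 10.2% and 12% of all tested probe sets were. The 8 tested genes, each by its brightest probe set, had a median difference of 0.21, against -0.0031 for all 12694 tested genes, with 2 called higher with the block, where 1.37% of those genes were. In a model with 1 probe set per gene limma called 0 of the 8 without the block, where 0.165% of genes were called, and 1, Kit, with it, where 3.33% were. Kit had a limma adjusted p of 0.0546 and 0.0179 in that model.

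Lists of related genes were set beside these markers. Of 20 tested genes that carry or end the signal of Kit, 0 were called in either model, the median difference was -0.05, and 13 of 20 had a lower mean. Both depend on the scaling, since centring on all probe sets gave a median of 0.06 with 6 of 20 lower, and values without centring gave 10 of 20. The adaptor Grb2 (-0.25, limma adjusted p = 1.0) and the feedback inhibitor Spry2 (0.27, 1.0) had the smallest p of these. Of 17 tested other hepatic progenitor markers 0 were called without the block, and 2 rose with it, with a median of 0.05. Those were Epcam, an epithelial adhesion protein (1.02, blocked limma adjusted p = 0.0194, unblocked 0.449), and the cadherin Cdh1 (0.54, 0.0317 and 0.913). Epcam read 222, 206, 356 and 390 on arrays labelled Bmi1, against 103, 140, 131 and 166 on control arrays, and its groups did not overlap.

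Among the neighbours of Dlk1 in its imprinted region and the Notch genes, 8 of 9 tested had a higher mean and the median was 0.53. Meg3, the maternally expressed RNA next to Dlk1, read 1828, 814, 1660 and 1174 on arrays labelled Bmi1, against 944, 481, 890 and 962 on control arrays. It was the only gene of that list to be called, and rose with the block (0.68, blocked limma adjusted p = 0.0363, unblocked 0.988). The list's median was 0.27 without Bmi1 3 or without control 2. Meg3 was read by a probe set whose name ends in _x_at.

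Of 15 tested glypican and heparan sulfate genes 1 rose with the block, the syndecan Sdc3 (1.25, blocked limma adjusted p = 0.026, unblocked 0.232), and the median was -0.01. Of 4 tested Ly6 family genes 2 rose with the block, Lynx1 (1.17, 0.0105 and 0.147) and Ly6e (0.81, 0.0185 and 0.722). Lynx1 was read by a probe set whose name ends in _x_at. The values of the family say nothing of Ly6a, which had no probe set here. Of 9 tested CD44 ligands and partners 0 were called, with a median of 0.09. Moesin, Msn, which links CD44 to actin, had the smallest p of them (-0.61, limma adjusted p = 0.631, and 0.0552 with the block), and Mmp14 (-0.30, 1.0 and 0.492) was next. Of 4 relatives of Igdcc4 and Prom1 0 were called, with Dcc (lower) and Igdcc3 (-0.58) at limma adjusted p of 0.381 and 0.49 with the block. Dcc averaged 7.27 in arrays labelled Bmi1, 1 of them at background, and 12.9 in control arrays. It passed the level filter, at a signal of 7.92, through the control arrays, so its fold is not given.

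**Figure D4:**
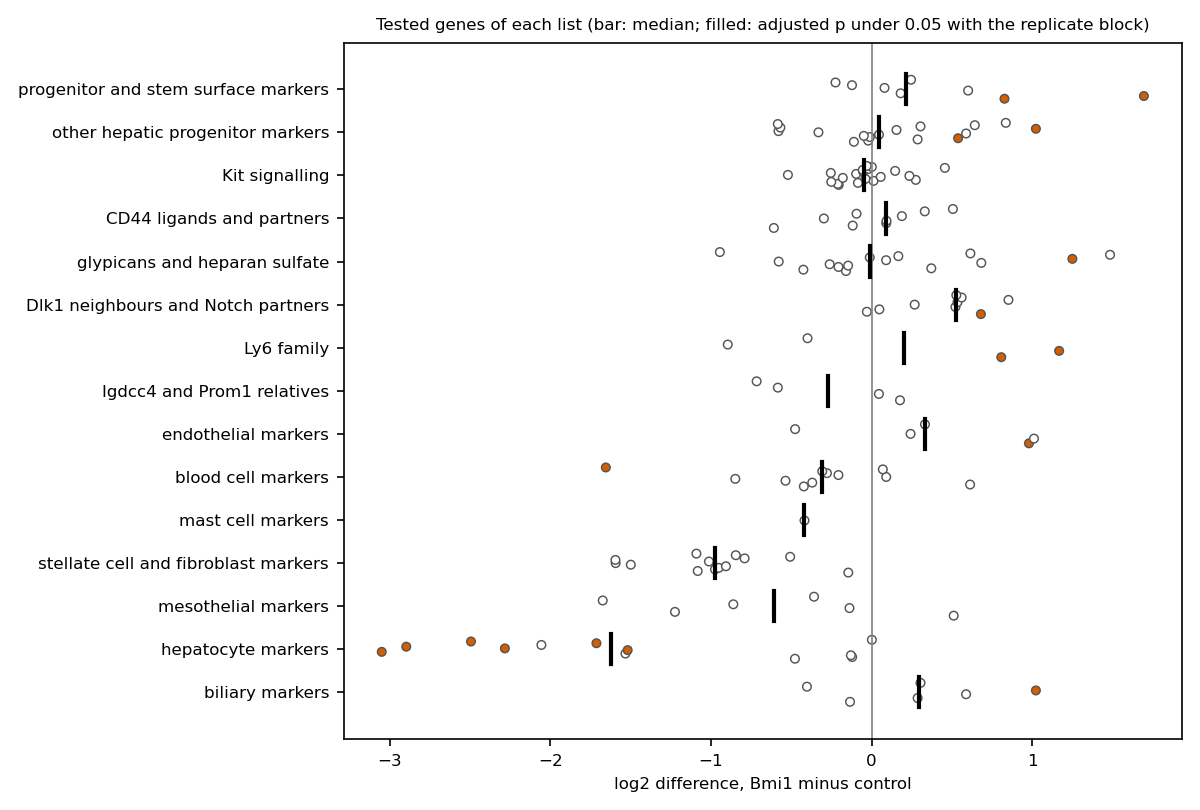
Log2 difference, arrays labelled Bmi1 minus control arrays, of each tested gene (points, by the brightest probe set) in the surface marker set and in 14 related or cell type lists, with a bar at each median and filled points where the limma adjusted p with the replicate block was under 0.05. Kit lies farthest to the right in the top row, and the hepatocyte list has its median at -1.62.

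Kit, Cd34 and Cd44 are also carried by blood, mast or endothelial cells, so markers of these were read on the same arrays. Of 16 blood cell genes on the array 7 were above background on all 8 arrays, among them Csf1r (237 in arrays labelled Bmi1 and 291 in control arrays) and Gata2 (113 and 72.0). Cd48 was at background on all 8, and Ptprc on 4 of 4 arrays labelled Bmi1 and 3 of 4 control arrays. Of 8 mast cell genes 1 passed the level filter, Cma1 (-0.42, limma adjusted p = 0.742 with the block), and their summed signal was 14.7 to 40.7 in arrays labelled Bmi1 and 28.5 to 99.8 in control arrays. Blood cell genes had a summed signal of 415 to 731 in arrays labelled Bmi1 and 421 to 1022 in control arrays. Of 11 tested, 8 had a lower mean and 3 a higher mean, and the median was -0.31. Of the 11, 1, Tal1, was called lower with the block (blocked limma adjusted p = 0.0445, unblocked 0.265). Tal1 read 10.3, 5.85, 1.11 and 0.596 on arrays labelled Bmi1, against 23.7, 20.01, 17.6 and 14.4 on control arrays. It was at background on 3 of 4 arrays labelled Bmi1 and passed the level filter through the control arrays, so its fold is not given. The part of blood cell genes in the Kit values was not tested.

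Of 13 endothelial genes 4 were at background on all 8 arrays, Pecam1, Tie1, Tek and Erg, and 4 were above it on all 8, Egfl7, Flt1, Esam and Kdr. Of 5 tested endothelial genes 1 rose with the block, Egfl7 (0.98, blocked limma adjusted p = 0.0201, unblocked 0.694), read by a probe set whose name ends in _x_at. Flt1, a VEGF receptor, averaged 84.5 in arrays labelled Bmi1 and 41.4 in control arrays (1.01, blocked limma adjusted p = 0.118). The summed endothelial signal was 367 to 466 in arrays labelled Bmi1 and 180 to 311 in control arrays. Egfl7 and Flt1 were the brightest of the list and made up most of this sum. Of the 5 tested genes 4 had a higher mean, and Kdr had a lower one (-0.48). Without the level filter 6 of the 13 had a higher mean and 7 a lower one, several of them at background. The 5 tested genes had a median difference of 0.33, which was 0.92 in run 1 and 0.26 in run 2. The part of endothelial genes in the Kit difference was not tested.

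Stellate cell and fibroblast genes, which share Cd44 and Kitl with other cell types, had a lower mean in 13 of 13 tested, with 0 called in either model and a median of -0.98. That median was -1.54 within run 1 and -0.06 within run 2. Their summed signal was 3827 to 9184 in arrays labelled Bmi1 and 5501 to 17336 in control arrays. All tested genes of the list but Vim, Des and Hand2 read highest of the control arrays on control 1, with its Gapdh ratio of 3.10. Col3a1 read 2300, 353, 112 and 19.2 on control 1 to 4, and Dcn read 1272, 499, 120 and 127. Pdgfrb (-0.91) and Dcn (-1.50) had the smallest p (limma adjusted p = 0.867 and 0.947). Of 6 tested mesothelial genes 0 were called, with a median of -0.61, Wt1 at -0.86 and Podxl at 0.51 (limma adjusted p = 0.566 and 0.805). Their part in the Cd44 and Kitl values was not tested.

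Hepatocyte genes had a median of -1.62 over 12 tested. Without the block 1 was called lower, Ugt2b5 (-2.49, limma adjusted p = 0.0168), and 6 with it. Of all 12694 tested genes 4 and 188 were called lower. Not called were Tat (-2.06), Cps1 (-1.53), Apoa1 (-0.48), Alb (-0.13), Ttr (-0.12, an _x_at probe set) and Tdo2 (0.0014). Apoa1, Ttr and Alb were the brightest of the list. Fbp1 (-2.90), Serpinc1 (-2.28) and G6pc (-1.52) were among the 6, whose blocked limma adjusted p lay between 0.00317 and 0.0105. Of 6 tested biliary genes 1, Epcam, rose with the block, and the median was 0.29. Afp, the fetal liver protein, was bright on all 8 arrays, with 4932 ± 1218 in arrays labelled Bmi1 and 5140 ± 1083 in control arrays (SD, n = 4 each). In bulk RNA, fewer cells of a type and less RNA per cell cannot be told apart.

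For the 3 called markers, the genes with the most similar pattern were found by Pearson correlation over the 8 arrays. These are descriptions across all tested genes, and the arrays share group and run. Nearest to Kit were Pdk1 (r = 0.966), Rnf130 (0.958) and Mapk8ip2 (0.951), nearest to Cd24a 1416034_at were Tubb4a (0.986), Cdh1 (0.982) and Igsf1 (0.982), and nearest to Dlk1 1449939_s_at were Afap1l1 (0.996), Galnt2 (0.993) and AU040320 (0.990). After removal of the group means the correlations for Kit were 0.828, 0.783 and 0.665, and those for Dlk1 and Cd24a stayed between 0.969 and 0.998. Mapk8ip2 was at background on 2 of 4 control arrays and passed the level filter through the arrays labelled Bmi1, which limits what its likeness to Kit shows.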

How the data were processed

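Per the labels, biotinylated cRNA from 2-cycle amplification was hybridised to Affymetrix mouse arrays. The deposited values are signal intensities on a linear scale, and the program behind them is not named in the labels. Symbols came from the platform annotation: 34945 probe sets had 1 symbol, 932 several and 9160 none here, and 64 were control probe sets.

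Values were taken as log2(intensity + 3.78), the constant being the median of all deposited intensities divided by 4, which understates folds of dim genes. Each array was centred on the median of its 27022 tested probe sets. The comparison used limma 3.58.1 (R 4.3.3, lmFit, then eBayes with trend) with two-sided p-values adjusted by Benjamini-Hochberg across all tested probe sets. The code was run on simulated data with a replicate effect built in and no run effect, so that run does not bear on the pairing. The main model has no block.

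Same-numbered arrays deviated together, with correlations of 0.56, 0.33, 0.47 and 0.64 (each over 0.1), so the numbers were taken as pairs and blocked values are given where they change a call. With control arrays of another number, Bmi1 1 to 4 reached at most 0.16, 0.40, 0.40 and 0.31. The run difference is part of these correlations, so they do not settle that the numbers are pairs. Bmi1 2 correlated best with control 1.

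Members, lists and tests were chosen with earlier results of these data known. All probe sets of the set are named. From every other list up to 4 called genes are named, or the 2 with the smallest p. Ptprc, Cd48, Csf1r, Gata2, Pecam1, Tie1, Tek, Erg, Flt1, Esam, Kdr and Afp were named after their values were seen. The same holds for Col3a1, Vim, Des, Hand2, Tat, Cps1, Apoa1, Alb, Ttr and Tdo2. Alternatives covered scaling, level filter, pseudocount, probe set choice, blocks, array weights and left-out arrays. Precision is limited by having 4 arrays a group.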

Additional observations from a re-analysis of the deposited data

Results flagged for a closer look

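Of 44 groups of 4 arrays examined over the 22 probe sets, 1 held an array far from the other 3, where chance flags about 1 in 20 groups. It was Gpc3 1450990_at on Bmi1 4, which read 583. The gap was 0.832 of the group's range on the centred log2 values, the scale on which groups were examined.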

How the results depend on the processing

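Without a block, 12 probe sets were called, 7 higher and 5 lower. The count was 1 with the filter at the 60th percentile, 7 with a pseudocount of 1, 36 with array weights, 203 with the run block, 481 with the replicate block and 0 within run 1 or within run 2 (limma, with 1403 and 2108 at an unadjusted p under 0.05). Leaving out an array gave 0 to 14, with 0 without Bmi1 2, Bmi1 3, Bmi1 4, control 2 or control 3 (932 to 1391 at an unadjusted p under 0.05), 4 without Bmi1 1 and 2 without control 1. Higher and lower calls were 8 and 2 with quantile normalisation, 7 and 3 without centring, and 6 and 7 centred on all probe sets. With the replicate block they were 237 and 244, against 342 and 219 centred on all probe sets and 243 and 153 without the level filter, and leaving out a replicate number gave 113 to 285 calls (285, 220, 113 and 231 without number 1, 2, 3 and 4). Centring on all probe sets gave a median difference of 0.08, against -0.02.

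The replicate block gave calls for Kit 1452514_a_at (1.69), Cd24a 1416034_at (0.68) and Dlk1 1449939_s_at (0.83), and changed no other call of the set. These and Prom1 (0.32 to 0.86) kept their direction in all settings run. Signs turned for Kitl, Cd24a, Cd44 and Gpc3 probe sets that were not called, with main values between -0.23 and 0.75. Within run 2 they were -0.18 for Kitl 1415854_at, -0.23 for 1415855_at, -0.13 for 1448117_at and -0.049 for Cd24a 1437502_x_at. Within run 1 they were -0.034 for Cd24a 1448182_a_at and 0.22 for Cd44 1434376_at, and array weights gave -0.034 for Cd24a 1448182_a_at. Leaving out an array gave -0.067 to 0.40 for Kitl 1415855_at, -0.032 to 0.48 for 1448117_at, -0.031 to 0.21 for Cd24a 1448182_a_at, -0.28 to 0.071 for Cd44 1434376_at and -0.41 to 0.035 for Gpc3. The cause was not tested. Of 313 list medians under other settings 21 moved by more than the spread between pairs, 11 of them in the Ly6 family. Models that combine the replicate block with another choice were added after seeing the data. Kit 1415900_a_at and Cd34 lay near background, which limits what their signals show.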
